A study of Mus musculus with 72 samples.

Results

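The 10 genes described here are expressed by Kupffer cells, the macrophages that reside in the liver sinusoids, or by macrophages in general. They are Clec4f, Vsig4, Cd5l, Marco, Timd4, Adgre1, C1qa, C1qb, C1qc and Csf1r. The genes were chosen with earlier results of these data known. Each gene was included through every array probe whose transcript accession belongs to it, with no use of the probe's measured level. This gave 12 probes out of 56605 non-control probes, and 10 genes out of the 23787 for which a probe could be named. Adgre1 and Csf1r had 2 probes each, and the probe with the higher mean level over all arrays stands for the gene below unless the other one is named.

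The arrays measured mRNA in whole liver and whole lung of female C57BL/6 J mice, 6 to 8 weeks old. Tissue was taken 48 h after whole body X-irradiation (WBI) with 1, 2, 4, 8 or 12 Gy, or after sham exposure in the same containers (0 Gy), with 3 mice at each of the 6 doses in each tissue. Each dose had 3 liver and 3 lung arrays, hence 36 arrays, and the labels name no transgene and no other agent. Nothing was sorted, so in this bulk RNA fewer cells of a type and less RNA per cell cannot be told apart. Mice are called by the sample numbers of the labels; liver and lung arrays share these numbers, but the labels do not state that a number marks 1 animal in both tissues.

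Macrophages of the liver and lung descend largely from embryonic precursors and are kept alive by colony stimulating factors. Kupffer cells clear bacteria, complement-coated particles and dying cells from portal blood, and the receptors for these tasks make up much of their signature. In the lung the main resident macrophage is the alveolar macrophage, which takes up inhaled particles and surfactant. Macrophages are also the main source of C1q, the recognition molecule of the classical complement pathway, which is built from the products of C1qa, C1qb and C1qc.

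Between 46.1% and 54.0% of spots were well above background on the liver arrays. In lung the share was 59.2% to 64.0% on 14 arrays and 54.1% to 54.8% on the other 4, which lay together on slide 5 and were all 3 arrays of 12 Gy and mouse 25 of 8 Gy. No spot was saturated. The liver arrays of 0 and 1 Gy lay on slide 1 with mice 3 and 13 of 2 Gy. Slide 2 held the remaining 2 Gy mouse, 4 Gy, 8 Gy and mouse 6 of 12 Gy, and slide 3 held mice 16 and 26 of 12 Gy with the lung arrays of 0 and 1 Gy. Dose and slide therefore overlapped strongly in both tissues. The lung array of mouse 16 at 12 Gy had 1578 spots marked as outliers, against 110 to 600 on the other lung arrays. The tissue labels matched the markers: Sftpc, a surfactant protein of the lung epithelium, was 10.81 log2 units higher in unirradiated lung than in unirradiated liver, and all 15 hepatocyte markers were lower in lung.

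The start regions of 4 of the genes are shown because the genes differ in the results below. In fits of dose alone, Clec4f and C1qb passed the test at 3 doses in liver, while C1qc and Marco rose with dose in lung. Once slide was added to the fit as a term, none of these results passed. Each line gives the 250 bases that precede the annotated start in RefSeq on build GRCm38.p6, written 5′ to 3′ on the gene's strand. Capitals mark GAGGAA or its reverse complement TTCCTC, the core letters read by PU.1, the ETS-family factor needed for the macrophage lineage.
Clec4f, chr6:83656117-83656366, minus strand: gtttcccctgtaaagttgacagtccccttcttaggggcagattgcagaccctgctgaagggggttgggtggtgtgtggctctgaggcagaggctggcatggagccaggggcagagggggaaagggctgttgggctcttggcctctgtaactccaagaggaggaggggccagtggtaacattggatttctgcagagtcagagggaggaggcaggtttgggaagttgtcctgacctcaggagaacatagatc
C1qb, chr4:136886201-136886450, minus strand: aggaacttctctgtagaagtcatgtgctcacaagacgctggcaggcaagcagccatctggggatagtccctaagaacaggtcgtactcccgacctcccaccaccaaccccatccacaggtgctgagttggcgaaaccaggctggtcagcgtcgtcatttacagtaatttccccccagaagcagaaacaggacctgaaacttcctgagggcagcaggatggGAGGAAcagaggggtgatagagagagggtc
C1qc, chr4:136892915-136893164, minus strand: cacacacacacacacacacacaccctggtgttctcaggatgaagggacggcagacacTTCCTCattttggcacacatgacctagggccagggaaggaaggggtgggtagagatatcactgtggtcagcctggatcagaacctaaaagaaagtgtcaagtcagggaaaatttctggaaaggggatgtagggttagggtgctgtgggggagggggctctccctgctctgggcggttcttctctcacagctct
Marco, chr1:120505025-120505274, minus strand: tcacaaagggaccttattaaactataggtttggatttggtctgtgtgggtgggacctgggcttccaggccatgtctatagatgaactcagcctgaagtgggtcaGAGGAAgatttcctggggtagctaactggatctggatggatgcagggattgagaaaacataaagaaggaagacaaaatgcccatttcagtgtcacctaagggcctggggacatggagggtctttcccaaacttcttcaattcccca
The core stood 30 bases before the start of C1qb, 193 before that of C1qc and 146 before that of Marco, and these letters were not found in the Clec4f window. Of the 7 members with a sequence in the RefSeq table, 5 held the core on either strand, against 23.3% of 32851 promoters of the same length. Read the same way on both strands, the AP-1 letters TGANTCA were found in 0 of the 7 and in 6.75% of all promoters. The MAF half-site TGCTGA was found in 4 of the 7 and in 16.1% of all promoters. These matches describe the windows and were not linked to the measured levels.

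Among the members, unirradiated liver and lung differed most in Clec4f, Cd5l, Vsig4 and Timd4. All 36 arrays were normalized together for this comparison, and levels are log2 normalized intensities of 1 probe, so they can be set against each other between samples but not between genes. A gene was called where the difference exceeded 1 log2 unit in size and the adjusted p of limma, corrected over all probes tested (Benjamini-Hochberg), was below 0.05. In lung 6 of the 10 genes were called lower and 0 higher, where 34.8% of the 47376 probes tested were called in either direction and 16.8% lower. By adjusted p alone 8 members were lower and 1 was higher, against 52.8% of all probes in either direction and 26.8% lower. The median difference of the members was -1.41, beside -0.05 for all probes tested.

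Clec4f, a C-type lectin that marks mature Kupffer cells, was 13.78, 13.79 and 13.82 in the livers of the 0 Gy mice 1, 11 and 21. In the lungs numbered alike it was 4.40, 4.51 and 4.26, and none of these 3 lung values was well above background. In this processing liver was thus at least 679-fold higher (9.41 log2 units, adjusted p = 1.52e-20); lung minus liver was -7.65 with a normexp offset of 50 and -12.42 with the scanner's processed signal. Cd5l, which encodes a secreted scavenger protein that keeps macrophages alive, was 13.81, 13.93 and 14.13 in liver and 7.84, 8.28 and 8.23 in lung, a difference of -5.84 ± 0.65 (SE, n = 3 against 3). Vsig4, the complement receptor through which Kupffer cells hold C3-coated particles, was 11.79, 11.69 and 11.97 in liver and 5.70, 6.64 and 7.26 in lung (-5.28 ± 0.46). Timd4, a phosphatidylserine receptor for dying cells, was 9.32, 9.48 and 9.51 in liver and 6.73, 6.85 and 8.03 in lung (-2.23 ± 0.35). For these 4 genes no lung value reached a liver value, and the values of the 2 tissues were also apart in the other members. Over the 10 members, 8 lay lower in lung and 2 higher without overlap, a count not made for all probes.

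The other members differed less. C1qb was lower in lung by 1.52 ± 0.22, C1qa by 1.30 ± 0.19, C1qc by 0.91 ± 0.18 and Adgre1, which encodes the macrophage antigen F4/80, by 0.90 ± 0.22 log2 units (all passed by adjusted p). Csf1r, the receptor of the growth factor on which most tissue macrophages depend, was 12.93, 12.97 and 13.08 in liver and 13.34, 13.36 and 13.62 in lung. Its difference of 0.45 ± 0.15 passed the test (adjusted p = 0.0118) but turned to between -0.66 and -0.33 with other scalings or with the mean of both probes, and the second Csf1r probe was 2.15-fold lower in lung (adjusted p = 3.79e-05), so no direction is given for Csf1r. Without mouse 21 the difference was 0.40 (0.0747). Marco, a scavenger receptor of alveolar and other macrophages, was the only other gene with a higher mean in lung (0.86 ± 0.39, adjusted p = 0.0637).

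**Figure D1:**
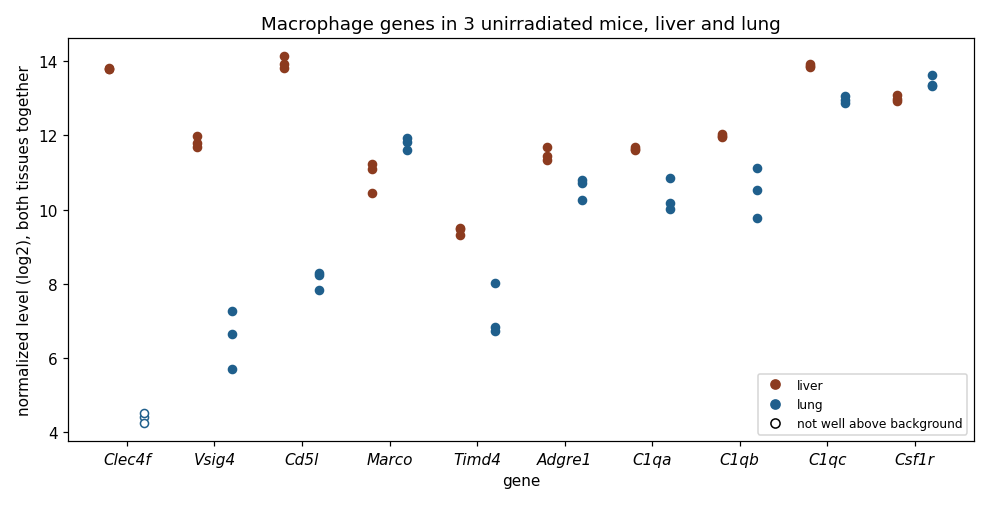
Log2 normalized intensity (vertical axis) of the lead probe of each of the 10 genes (horizontal axis) in unirradiated liver and lung, all 36 arrays normalized together; each point is 1 array, 3 per tissue, and open points are not well above background. Clec4f, Vsig4, Cd5l and Timd4 are separated by -9.41, -5.28, -5.84 and -2.23 log2 units, lung minus liver, while for Csf1r and Marco the lung points lie slightly higher.

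In the liver 9 of the 10 genes were lower than in sham mice at 48 h after 12 Gy, and 7 of them passed the test by adjusted p. The falls were modest: from 0.60 log2 units (Adgre1, 1.52-fold) to 0.93 (C1qb, 1.91-fold), so none exceeded 1 log2 unit and 0 members were called by the stricter rule, under which 2.06% of the 38362 probes tested were called. By adjusted p alone 7.01% of all probes passed and 4.10% passed as lower. The median difference of the 10 members was -0.64, beside 0.01 for all probes. In 9 members every 12 Gy value lay below every 0 Gy value, which was so for 15.0% of all probes. The tests at the 5 doses share the same 3 unirradiated mice.

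Clec4f was 13.65, 13.66 and 13.70 in the livers of the sham mice, on the arrays of the liver alone normalized together. It was 13.36, 13.32 and 13.38 at 1 Gy, 13.43, 13.29 and 13.20 at 2 Gy, 13.14, 13.30 and 13.07 at 4 Gy and 13.04, 13.19 and 13.42 at 8 Gy. It was lowest at 12 Gy, with 12.98, 12.88 and 12.98. Every irradiated mouse thus lay below every sham mouse. The difference was -0.50 ± 0.11 at 4 Gy (SE, n = 3 against 3, adjusted p = 0.0233), -0.45 ± 0.11 at 8 Gy (0.0188) and -0.72 ± 0.11 at 12 Gy (0.0011). At 1 Gy the values did not overlap with those of sham mice either, but the difference of -0.32 ± 0.11 did not pass (adjusted p = 0.577).

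C1qb had the largest difference among the members at 4, 8 and 12 Gy of the 9 with a lower mean. Its levels in sham liver were 11.58, 11.56 and 11.66, against 11.17, 11.05 and 11.44 at 1 Gy and 11.18, 11.30 and 10.98 at 2 Gy. They were 10.78, 11.11 and 10.79 at 4 Gy, 10.98, 10.90 and 11.10 at 8 Gy and 10.52, 10.60 and 10.90 at 12 Gy. As for Clec4f, no irradiated mouse reached the sham range. C1qb fell by 0.71 ± 0.14 at 4 Gy (adjusted p = 0.0135), by 0.61 ± 0.14 at 8 Gy (0.0145) and by 0.93 ± 0.14 at 12 Gy (0.0010). The other chains of C1q fell at 12 Gy: C1qa went from 11.20, 11.19 and 11.27 to 10.48, 10.52 and 10.64, a difference of -0.67 ± 0.12 (0.0042), and C1qc went from 13.75, 13.79 and 13.71 to 13.10, 13.15 and 13.18, a difference of -0.61 ± 0.15 (0.0248).

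The receptors and surface antigens followed at 12 Gy. Csf1r was 12.68, 12.72 and 12.85 in sham liver and 12.00, 12.09 and 11.92 after 12 Gy (-0.75 ± 0.14, adjusted p = 0.0038). Timd4 went from 8.68, 8.86 and 8.89 to 8.16, 7.86 and 7.90 (-0.84 ± 0.23, 0.0441). Adgre1 went from 10.99, 11.26 and 10.87 to 10.59, 10.39 and 10.33 (-0.60 ± 0.17, 0.0440). In each of these 3 genes the 12 Gy and sham values were apart. The second Csf1r probe differed by -0.48 ± 0.19 and did not pass. The second Adgre1 probe was well above background on 1 of the 18 livers and did not pass either.

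For Cd5l, Vsig4 and Marco the 12 Gy test was not passed in liver. Cd5l was 13.69, 13.82 and 14.03 in sham mice and 13.29, 13.27 and 13.20 after 12 Gy, a difference of -0.60 ± 0.17 just outside the threshold (adjusted p = 0.0504). Vsig4 was 11.38, 11.27 and 11.59 against 11.17, 10.68 and 10.90 (-0.50 ± 0.20, 0.166). Both genes were lower in every 12 Gy mouse than in every sham mouse. Marco was the member that did not share this order. It was 9.91, 10.75 and 10.62 in sham liver, 11.10, 12.58 and 10.69 at 2 Gy, and 10.24, 11.02 and 10.85 at 12 Gy. The value of 12.58 in mouse 13 at 2 Gy was the highest of all 18 livers, and the mean difference at 2 Gy of 1.03 ± 0.40 was not past the threshold (0.317).

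Below 12 Gy the changes of the 9 members that were lower at 12 Gy were smaller, and fewer passed. Marco differed by -0.30, 1.03, 0.47 and 0.73 at 1, 2, 4 and 8 Gy, beside 0.28 at 12 Gy, and did not pass. At 1 Gy all 10 members had lower means (median -0.26, beside 0.01 for all probes), but limma passed 0 of them, with 3 at an unadjusted p below 0.05; 0.0339% of all probes were called and 0.0417% passed by adjusted p. At 2 Gy 7 were lower and 0 passed, with 4 at an unadjusted p below 0.05, where 0.245% of probes were called and 0.461% passed. At 4 Gy 9 were lower and C1qb and Clec4f passed, where 0.944% were called, 3.31% passed and 1.72% passed as lower. At 8 Gy again 9 were lower and the same 2 genes passed, where 2.20% were called, 9.90% passed and 4.95% passed as lower. None of the members was called by the stricter rule at any of these 4 doses.

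**Figure D2:**
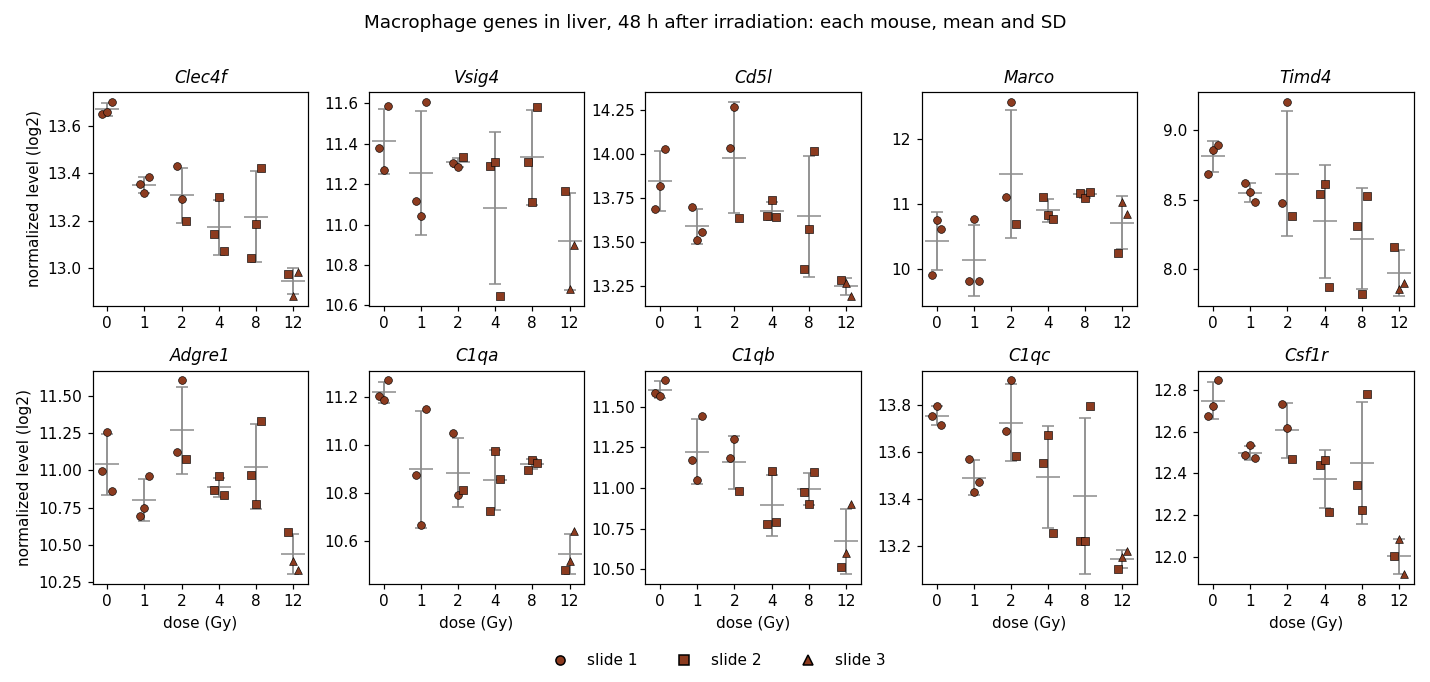
Log2 normalized intensity (vertical axes) of the 10 genes in liver against dose in Gy (horizontal axes), 1 panel per gene; points are single mice, 3 per dose, the bars give mean and SD, and the symbol gives the slide. Clec4f starts at 13.65 to 13.70 in sham mice and ends at 12.88 to 12.98 after 12 Gy, whereas Marco scatters between 9.81 and 12.58 with no such order.

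Dose groups were sorted by their means within each gene, and in no gene did this follow the order of dose. For Cd5l it ran 2, 0, 4, 8, 1 and 12 Gy. Of the 50 pairs of groups that were neighbours in the order of their means (5 pairs for each gene), 41 had overlapping ranges. This count was not made for all probes. The other 9 pairs lay next to the sham or the 12 Gy group. For Clec4f and C1qb the sham group stood clear of the 1 Gy group, which came next. For C1qa the sham group stood clear of 8 Gy. For Clec4f, C1qa and Csf1r the 12 Gy group stood clear of 4 Gy, for Cd5l and Adgre1 of 1 Gy and for C1qc of 8 Gy.

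A linear dose term was fitted over all 18 livers. The slope is given as the change over 12 Gy, and 7 of the 10 genes fell by adjusted p: Timd4 by 0.77 ± 0.18, C1qb by 0.70 ± 0.14, Csf1r by 0.58 ± 0.12, Clec4f by 0.53 ± 0.11, C1qc by 0.52 ± 0.13, Cd5l by 0.50 ± 0.16 and C1qa by 0.44 ± 0.12 (adjusted p from 0.0039 to 0.0493). Of all probes 9.51% passed and 5.47% passed as lower, and by the stricter rule 2.02% of all probes and 0 members were called. Adgre1 (-0.47 ± 0.18, adjusted p = 0.107), Vsig4 (-0.34 ± 0.17, 0.231) and Marco (0.32 ± 0.40, 0.694) did not pass. The members' median slope was -0.51, beside 0.00 for all probes.

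The slide was measured beside these falls because dose groups were placed on slides nearly in order. With slide as a term in the fit 0 of the 10 members passed at any dose or for the trend. At 12 Gy C1qb was then -0.83 (adjusted p = 0.212), C1qa -0.63 (0.326), Csf1r -0.54 (0.453), Clec4f -0.53 (0.339) and C1qc -0.44 (0.625). The other members that were lower at 12 Gy came closer to 0, with Vsig4 at -0.28, Timd4 at -0.19 (from -0.84), Adgre1 at -0.16 (from -0.60) and Cd5l at -0.05 (from -0.60), and the trend of Vsig4 turned from -0.34 to 0.06. Over all probes this fit passed 325 in place of 2690 at 12 Gy and 108 in place of 3647 for the trend. Slopes within slides give directions only. Over the 8 livers of slide 1, from 0 to 2 Gy, 7 of the 10 members had a negative slope. Over the 8 livers of slide 2, from 2 to 12 Gy, 9 had one, Marco among them. Those on slide 2 lay between -0.040 (C1qc) and 0.010 (Vsig4) log2 units per Gy. The members are not independent and the share of all probes was not counted, so these counts do not separate dose from slide. With slide as a random block 4 members passed at 12 Gy and 5 for the trend, beside 1987 and 2224 of the 38362 probes. The part of the slide was not tested beyond these fits.

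Single livers also decided some of these calls. Leaving out any 1 of the 6 sham or 12 Gy livers reduced the members passed at 12 Gy from 7 to 4. Timd4 and Adgre1 each missed the threshold at 12 Gy once 1 of 11 of the 18 livers was left out, and C1qc once 1 of 6 was. At 4 Gy 0 members passed without mouse 4, 11 or 24 and 1 passed without mouse 1 or 21. At 8 Gy 0 passed without mouse 15 or 21, 1 without mouse 5 or 11, and 4 without mouse 25. Clec4f, C1qb, C1qa and Csf1r passed at 12 Gy whichever liver was left out. For the trend, Cd5l no longer passed once 1 of 15 livers was left out (-0.54 to -0.45) and C1qa without mouse 1, 6, 11, 16 or 21 (-0.41 to -0.39), and Clec4f, C1qb, C1qc, Csf1r and Timd4 passed whichever of the 18 was left out.

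Other genes of macrophages also moved in liver. Beside the lists below, 9.51% of all probes passed the liver trend and 5.47% passed as lower. Of 30 further macrophage genes, 29 were tested for the liver trend, and 11 fell and 0 rose (median slope -0.36). Lyz2, the lysozyme of myeloid cells, fell by 1.21 ± 0.18, Fcgr3, an activating Fc receptor, by 0.87 ± 0.13 and Mrc1, the mannose receptor, by 0.86 ± 0.25. The summed level of that list was 16.26 to 16.30 in sham mice and 15.84 to 15.98 after 12 Gy. Such a level is the log2 of the summed intensities, so the brightest genes of a list weigh most. Of 20 genes that regulate the macrophage lineage, 4 fell and 3 rose: Csf2ra and Csf2rb, the receptor chains for the colony stimulating factor of granulocytes and macrophages, fell by 0.70 ± 0.13 and 0.53 ± 0.14, while Id1 rose by 1.92 ± 0.35, Gata6 by 1.08 ± 0.15 and Cebpb by 1.07 ± 0.18. Among the partners of C1q (proteases, inhibitor and receptors), 1 of 11 fell (Calr, -0.88 ± 0.20) and 1 rose (C1s2, 0.46 ± 0.11), which is near the share of all probes.

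Markers of other cell types moved in the same livers. Of the B cell markers 9 of 13 fell with dose and 0 rose, and their summed level went from 10.65 to 10.96 in sham mice down to 9.33 to 9.45 after 12 Gy. Of the T cell markers 6 of 12 fell, of the dendritic cell markers 6 of 11 and of the monocyte markers 4 of 13, and 0 rose in these lists. The summed monocyte level overlapped between sham mice (16.14 to 16.42) and 12 Gy (16.19 to 16.35). Fn1 was the brightest gene of that sum, with a mean of 15.56. Ccr2 and F13a1 were well above background on only 3 of 18 livers each. Neutrophil markers had 1 of 13 lower and 1 higher, with a summed level of 14.30 to 14.43 in sham mice, 14.96 to 15.21 at 8 Gy and 14.66 to 15.12 at 12 Gy, and erythroid markers had 1 of 10 lower and 2 higher. The brightest genes of the neutrophil sum were Csf3r (mean 13.56) and Lcn2 (13.51). Neither the monocyte nor the neutrophil sum measures a number of cells. Blk and Bcl11b, from the B and T cell lists, were not well above background on any liver array. Sinusoidal endothelial markers, which share the Kupffer cell's location, fell in 4 of 10 cases (Gpr182, Fcgr2b, Clec4g and Dnase1l3) and rose in 1 (Lyve1, 1.69 ± 0.22), with a summed level of 15.19 to 15.35 in sham mice and 14.66 to 14.86 after 12 Gy. Hepatocyte markers had a summed level of 21.88 to 21.91 in sham mice and 21.88 to 21.93 after 12 Gy and 1 of 15 genes past the threshold (Tat, 0.61 ± 0.17). The part of these cell types in the members' values was not tested.

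Across the 18 livers the members other than Marco varied together. Their 36 pairwise Pearson correlations lay between 0.49 and 0.92 with a median of 0.73. Clec4f and C1qb reached 0.92 and C1qc and Csf1r 0.90. Marco stood apart, with correlations of -0.24 to 0.45 to the other 9. The points share dose, slide and normalization, so these values describe the arrays only. Among 16514 probes well above background on all 18 livers, those most like the mean of the 3 C1q genes were Cyba (r = 0.944), Cd72 (0.944), Pilra (0.922), Ifi30 (0.912) and Pilrb1 (0.912). Those most like the mean of Clec4f, Vsig4, Cd5l, Marco and Timd4 were Cfp by both of its probes (0.919 and 0.860), Cd300a (0.901), Treml4 (0.866) and Ear10 (0.860). Levels were centred but not scaled for this mean, so Marco weighed most. Its range over the livers was 2.77 log2 units, against 0.82 for Clec4f.

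In the lung the same genes did not fall together. At no dose did any of the 10 pass by adjusted p in limma, and in order of dose 0, 0, 1, 0 and 2 had an unadjusted p below 0.05. Of the 43979 probes tested, 0.0227%, 0.446%, 1.46%, 2.51% and 7.29% were called from the lowest to the highest dose, and 0.0250%, 0.555%, 2.18%, 4.25% and 21.4% passed by adjusted p. At 12 Gy 7 members, with Clec4f near background among them, had a higher and 3 a lower mean, with a median of 0.24 beside 0.09 for all probes. Marco, C1qc and Cd5l were higher in every 12 Gy lung than in every sham lung, which was so for 21.8% of all probes.

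**Figure D3:**
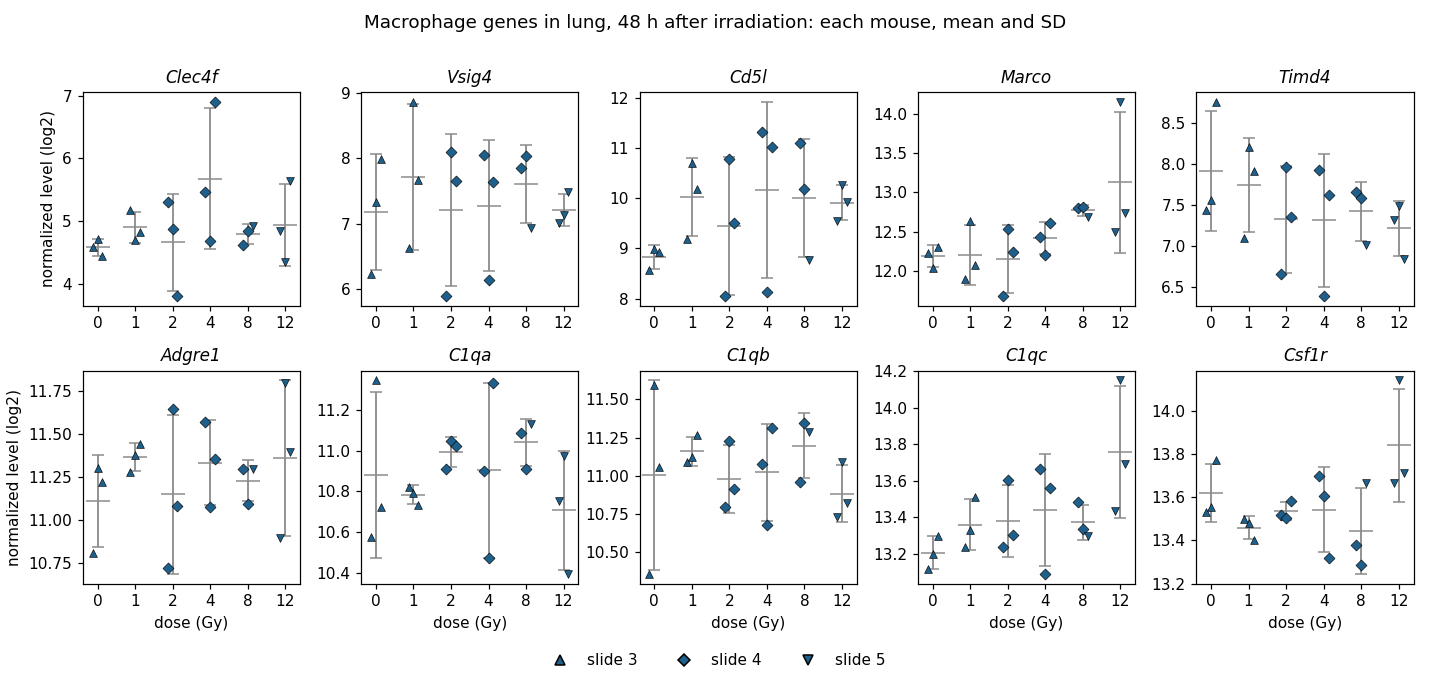
Log2 normalized intensity (vertical axes) of the 10 genes in lung against dose in Gy (horizontal axes), 1 panel per gene; points are single mice, 3 per dose, the bars give mean and SD, and the symbol gives the slide. Marco and C1qc are highest at 12 Gy, with mouse 16 at 14.15 for both genes, while Cd5l, Vsig4 and Timd4 scatter by over 2 log2 units among the 18 lungs.

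Marco was 12.23, 12.03 and 12.31 in sham lung and 11.90, 12.63 and 12.08 at 1 Gy. It was 11.68, 12.54 and 12.24 at 2 Gy, 12.43, 12.21 and 12.61 at 4 Gy, 12.80, 12.81 and 12.69 at 8 Gy and 12.49, 14.15 and 12.74 at 12 Gy. The 8 Gy and 12 Gy lungs thus lay above the sham lungs, and mouse 16 stood above all others. The dose trend of Marco was 1.00 ± 0.25 over 12 Gy (adjusted p = 0.0056), which made it the 1 member called by the stricter rule, under which 7.02% of all probes were called. It lay just above the limit of 1 log2 unit and dropped below it once 1 of 9 lungs was left out, mouse 16 among them. Without mouse 16 the slope was 0.62 (0.0303), and without the 4 lungs of slide 5 it was 0.96 ± 0.32 (0.101). At 12 Gy alone the difference of 0.93 ± 0.34 did not pass (0.0609).

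C1qc was the other member that rose with dose in lung, by 0.41 ± 0.15 over 12 Gy (adjusted p = 0.0478), where 30.7% of all probes passed and 19.7% passed as higher. It was 13.12, 13.20 and 13.30 in sham lung and 13.44, 14.15 and 13.69 at 12 Gy. The 12 Gy lungs lay above the sham lungs, with mouse 16 highest again. Without mouse 16 the slope was 0.23 (0.251), and without slide 5 it was 0.27 (0.601), and it also missed the threshold once 1 of 9 other lungs was left out (0.38 to 0.41). The partner chains did not show it, with slopes of -0.08 ± 0.18 for C1qa and -0.08 ± 0.20 for C1qb. Csf1r had a slope of 0.21 ± 0.14 (0.269), which turned to -0.32 ± 0.19 without slide 5 and to -0.27 with slide as a term, and Adgre1 had one of 0.13 ± 0.19. The second Adgre1 probe had a fitted slope of the opposite sign past the threshold, but it was well above background on 1 of the 18 lungs and measures no slope. With slide as a term 0 members passed for the lung trend, and dose groups could not be fitted with it.

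Clec4f was near background in lung at all doses. It lay between 3.80 and 6.90 and was well above background on 2 of the 18 arrays, mice 4 and 24 of 4 Gy. The value of 6.90 belonged to mouse 24, whose lung also had the highest Alb, the serum albumin made by hepatocytes, at 14.75 log2 units. The other lungs with an Alb value had 6.88 to 12.56, and mouse 4 had 7.99. The hepatocyte list summed to between 11.18 and 16.82 in the 3 lungs of 4 Gy, to between 10.64 and 13.29 in sham lung and to between 12.40 and 14.83 at 12 Gy. The part of liver RNA in these lung values was not tested.

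Cd5l, Vsig4 and Timd4 were detected in lung and varied widely between mice of 1 dose, with mean within-dose SDs of 0.95, 0.84 and 0.57 log2 units. Cd5l was 11.32, 8.13 and 11.03 at 4 Gy, and its slope of 0.66 ± 0.63 did not pass (adjusted p = 0.459). Vsig4 was 8.06, 6.14 and 7.63 in the same lungs, and Timd4 was 7.92, 6.39 and 7.62. Mouse 14 was thus the lowest of the 3 for each of these genes. Across the 18 lungs Vsig4 correlated with Cd5l at r = 0.78 and with Timd4 at 0.77, and Marco with C1qc at 0.78. The 45 pairs ranged from -0.32 to 0.78, and as in liver the points share dose, slide and normalization. Of the 50 neighbouring pairs of dose groups in lung, sorted by their means, 48 overlapped, a count not made for all probes. With slide as a term or without slide 5 the trend of Cd5l was 2.87 and 2.25, and neither passed.

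**Figure D4:**
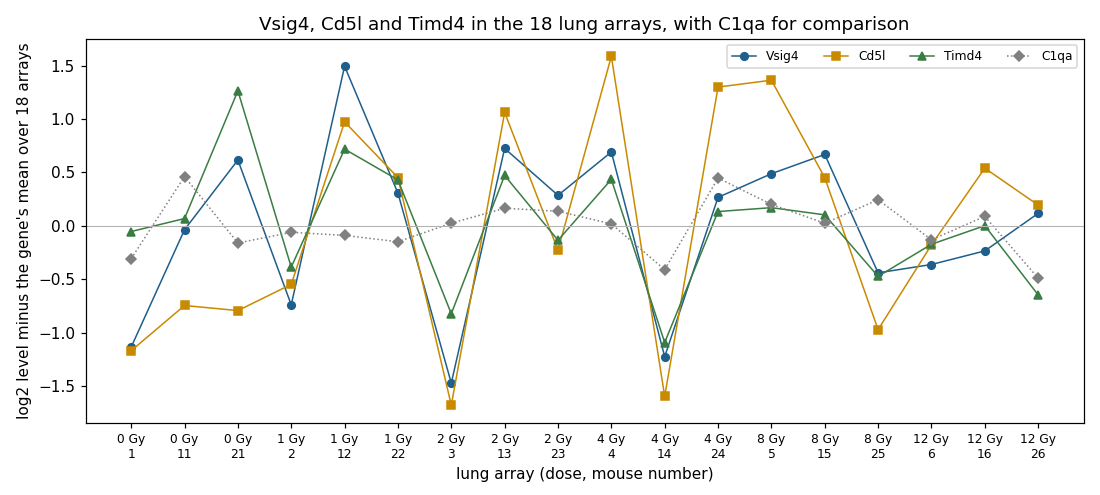
Log2 level minus the gene's mean over 18 arrays (vertical axis) of Vsig4, Cd5l, Timd4 and, for comparison, C1qa in each lung array (horizontal axis, ordered by dose with the mouse number); each point is 1 mouse and lines only join the points of a gene. Vsig4, Cd5l and Timd4 dip together in mouse 3 of 2 Gy (5.89, 8.05 and 6.66 before centring) and in mouse 14 of 4 Gy, where C1qa moves less.

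Further macrophage genes in the lung gave a mixed picture. Of the same 30 genes 12 fell and 3 rose with dose (median -0.38, beside 0.08 for all probes). Tyrobp, a signalling adaptor of myeloid receptors, fell by 1.57 ± 0.20, Cx3cr1, the fractalkine receptor, by 1.22 ± 0.29 and Aif1, an actin-binding protein of macrophages, by 1.08 ± 0.25. Slc40a1, the iron exporter, rose by 0.94 ± 0.19, Trem2, a lipid receptor, by 0.79 ± 0.17 and Lgmn, a lysosomal protease, by 0.35 ± 0.10. Of the lineage regulators 3 of 20 fell, among them Irf8 (-1.06 ± 0.22), and 5 rose, among them Il34, a ligand of Csf1r, by 0.81 ± 0.15. Of all probes 30.7% passed the lung trend and 19.7% passed as higher, beside the 3 of 30 and 5 of 20 that rose in these lists. Of the 12 partners of C1q 7 rose and 0 fell: C4b by 1.39 ± 0.14, Lrp1 by 1.14 ± 0.19 and the C1 inhibitor Serping1 by 0.97 ± 0.12.

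Of 14 alveolar macrophage markers 7 fell with dose in lung and 0 rose, among them Ear1 (-1.26 ± 0.33) and Fabp1 (-1.15 ± 0.39), while Marco, which these cells also express, rose. Beside the lists of this paragraph, 30.7% of all probes passed the lung trend in either direction and 19.7% passed as higher. The summed level of that list was 16.78 to 17.29 in sham lung and 16.58 to 16.85 after 12 Gy. B cell markers fell in 12 of 14 cases, from a summed level of 14.43 to 15.54 down to 12.20 to 12.56, and T cell markers in 11 of 13. Monocyte markers were split, with 5 of 13 lower (among them Ccr2 and Treml4) and 3 higher, and their summed level was 18.55 to 18.61 in sham lung and 19.26 to 19.31 after 12 Gy. The brightest genes of that sum were Ly6c1 (mean 17.52) and Ly6c2 (17.44). The part of these cells in the members' lung values was not tested.

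The slopes of liver and lung were compared in 1 fit over all 36 arrays. For the 9 members well above background in both tissues the lung slope was the higher, although that of Timd4 (0.23 ± 0.37) turned to -0.03 with the authors' table. The median difference was 0.59 over 12 Gy, with Clec4f included, beside 0.08 for all probes. C1qc and Csf1r passed the test of this difference, where 16.5% of all probes passed and 11.0% passed as higher. By the stricter rule 0 members and 7.19% of probes were called. C1qc differed by 0.92 ± 0.21 (adjusted p = 0.0023) and Csf1r by 0.74 ± 0.19 (0.0062). C1qb (0.55 ± 0.26, adjusted p = 0.143), Adgre1 (0.58 ± 0.27, 0.139) and Marco (0.84 ± 0.48, 0.238) did not pass, so for them the 2 tissues were not shown to differ.

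Neither of these 2 differences passed without the lungs of slide 5, where over all probes 643 passed in place of 7838. Without both arrays numbered 16, C1qc differed by 0.71 (adjusted p = 0.0215) and Csf1r by 0.55 (0.0463). Without slide 5, which removes 12 Gy from the lung, C1qc differed by 0.77 ± 0.28 (0.186) and Csf1r by 0.13 ± 0.23 (0.901), and 0 members passed. That fit also holds fewer arrays, and the part of slide 5 was not tested.

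**Figure D5:**
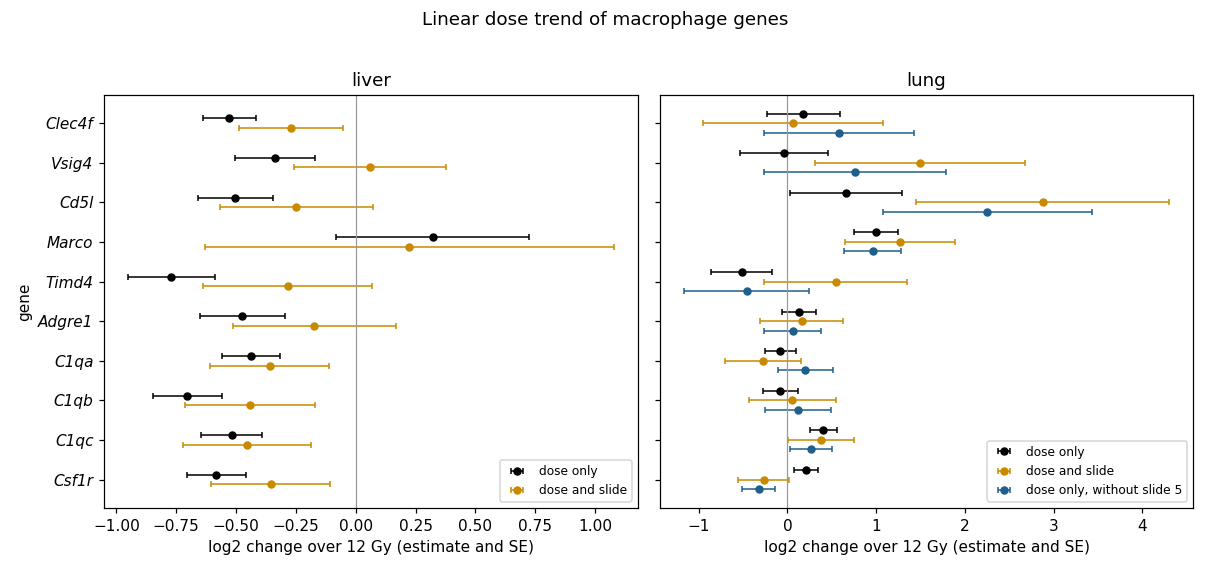
Change of the log2 level over 12 Gy from the linear dose trend (horizontal axes) for each of the 10 genes (vertical axis) in liver (left) and lung (right); points are limma estimates and bars their standard errors, with dose only, with dose and slide, and in lung also without slide 5. In liver 9 of the dose-only slopes are below 0 with Marco as the exception, in lung Marco (1.00) and C1qc (0.41) are the 2 that passed, and the bars widen once slide is a term.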

How the data were processed

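Per the file headers, the deposited intensity values of the 36 mRNA arrays (1-colour Agilent; the median over the pixels of a spot, with that of the background around it) came from Agilent Feature Extraction (version 11.5.1.1) and were not normalized between arrays. The authors' methods name normexp and quantile normalization; whether their deposited table of processed intensity values was made in this way is not stated, and it served only as an alternative, and 36 miRNA arrays were not used here. Outlier spots were set to missing. Background was corrected by normexp (offset 0), control spots were removed, log2 intensities were quantile normalized over the 18 arrays of a tissue, or over all 36 to compare tissues, and spots of a probe were averaged. Probes were tested if at least a share of 0.5 of their spots was well above background on 1 array of the fit. RefSeq accessions named 34566 of 56605 probes, and Ensembl accessions were not matched. Each dose was compared with 0 Gy, dose was also fitted as a number (slope times 12), and tissues were compared by 0 Gy level and by slope, with limma (version 3.58.1 in R 4.3.3) and Benjamini-Hochberg adjustment over all probes of a fit. The number of arrays, 3 a dose, limits the precision: tested on simulated data, a change of 0.7 log2 units in liver at 12 Gy was recovered for 28% of changed probes and one of 1.5 for 74%. The simulation changed 100 probes of each size among 38362 and held no slide effect. In the data 2690 probes passed at 12 Gy, so these shares need not hold for them.

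The 10 genes and the 14 gene lists were chosen with earlier results of these data known. All 10 are named, and from each list up to 3 genes a direction with the largest change past the threshold, plus markers needed to describe a cell type. Alternatives were an offset of 50, 75th percentile scaling, the scanner's processed signal, the deposited table, no filter, the mean of a gene's probes, slide as a term or random block, the sample number as a block, 1 fit over both tissues and leaving out each array; leaving out slide 5 was added after the data were seen.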

Additional observations from a re-analysis of the deposited data

Results flagged for a closer look

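The dose trends of 2 genes differed between the tissues by the test of the difference itself. C1qc had a slope 0.92 ± 0.21 log2 units over 12 Gy higher in lung than in liver (adjusted p = 0.0023, limma), with -0.52 in liver and 0.41 in lung. Csf1r differed by 0.74 ± 0.19 (adjusted p = 0.0062), with -0.58 in liver and 0.21 in lung. Without the 4 lungs of slide 5, which hold all of 12 Gy, the difference was 0.77 ± 0.28 for C1qc (adjusted p = 0.186) and 0.13 ± 0.23 for Csf1r (0.901). The lung slope of Csf1r then turned to -0.32, and with slide as a term it was -0.27. The other 8 members did not pass this test.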

How the results depend on the processing

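Settings were changed 1 at a time. Of the values of single members, 1261 kept direction and side of the threshold, 127 lost it, 12 gained it and 4 past the threshold changed sign. A further 28 changed sign without being past the threshold in either setting: in the lung trends of Vsig4, C1qa, C1qb, Csf1r, Adgre1, Clec4f and Timd4, in the liver trend of Vsig4 (0.06 with slide as a term) and in the trend difference of Timd4 (-0.03 with the deposited table). The 4 were all Csf1r between unirradiated lung and liver (main value 0.45): -0.49 with 75th percentile scaling, -0.54 with the processed signal, -0.66 with the deposited table and -0.33 with the mean of its probes. The first 3 settings also moved the median of all probes in that comparison from -0.05 to between -0.56 and -0.28.

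Counted by adjusted p alone, the calls rose from 0 to 11 over the 5 liver doses, where a gene counts once for each dose it passed. The members called rose from 0 to 7 for the liver trend, from 1 to 2 for the lung trend and from 0 to 2 for the trend difference. With 75th percentile scaling, the processed signal and the deposited table, the members called became 1 over the lung doses and 1 for the trend difference. The 1 call of the lung trend became 0 with an offset of 50, with slide as a term and without slide 5. Members lower by adjusted p at 4 Gy in liver were 2, and became 1 with no filter or slide as a random block and 0 with slide as a term or both tissues in 1 fit. At 8 Gy the 2 became 4 with the processed signal or the deposited table and 0 with slide as a term or both tissues in 1 fit. At 12 Gy the 7 became 4 with no filter or slide as a random block, 0 with slide as a term and 2 with both tissues in 1 fit. For the liver trend the 7 became 0 and 2 with the last 2 settings. Members higher in the lung trend were 2, and became 1 with no filter or slide as a random block and 0 with slide as a term or without slide 5. For the trend difference the 2 became 0 without slide 5. The cause was not tested; without slide 5 fewer arrays and no lung at 12 Gy enter the fit.

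Leaving out 1 array (both of a number where the tissues share a fit) gave 0 to 1 members called over the liver doses, 0 to 1 over the lung doses, 0 to 0 for the liver trend, 0 to 1 for the lung trend, 0 to 1 for the trend difference and 6 to 7 between the unirradiated tissues. By adjusted p it gave 0 to 2 at 4 Gy, 0 to 4 at 8 Gy, 4 to 8 at 12 Gy and 5 to 8 for the trend in liver, 1 to 2 for the lung trend and 2 to 2 for the trend difference.

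Arrays of the 2 tissues share sample numbers, and no source used here states that these mark the same animal. The deviations from the group means of same-numbered arrays correlated at -0.14 to 0.25 over 18164 probes, and in 3 of 18 cases the best correlation was with the array of the same number. With the number as a random replicate block the values of the trend difference were 0.92 for C1qc and 0.74 for Csf1r, 2 members passed and 0 were called, and 6 members were called between the unirradiated tissues. The block as a term gave the same counts and changed no other call by the stricter rule. Probes that were not well above background, such as Clec4f in lung and the second Adgre1 probe, give only an upper limit on the level.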
